A study of Mus musculus with 24 samples.

Results

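The acyl chains stored in adipose tissue are lengthened and desaturated by 2 enzyme families, and 8 of their genes are described here: the stearoyl-CoA desaturases Scd1 and Scd2, the front-end desaturase family Fads1, Fads2 and Fads3, and the elongases Elovl1, Elovl5 and Elovl6. They were chosen by symbol from the 16118 genes of the deposited expression table, all 8 were present, and all 8 passed the filter on low counts that left 16005 genes to test. The samples were inguinal white adipose tissue, a subcutaneous fat pad, from 24 individually numbered mice in 6 groups of 4, with polyA RNA sequenced from each. Males and females were taken at postnatal day 21 (p21), or at p28 after standard weaning (SW) or delayed weaning (DW). In the study's design, pups were separated at p21 or left with their mother, so at p28 SW mice had been apart from the mother for a week and DW mice had not. The p21 animals carry the label SW although they were sampled at the age of separation. All groups are whole tissue, and strain, genotype, litter and diet are not given in the sources used here.

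Fatty acid synthase ends mainly at palmitate, a saturated acid. Elovl6 extends palmitate to stearate, and the stearoyl-CoA desaturases place a double bond at the ninth carbon, which makes palmitoleate and oleate, the main monounsaturated acids of mouse fat. Essential polyunsaturated acids from the diet take another route: Fads2 and Fads1 add double bonds nearer the carboxyl end, and Elovl5 lengthens the products between those steps. Elovl1 makes very long saturated and monounsaturated chains used in sphingolipids. Genes of these routes are textbook targets of SREBP1 (sterol regulatory element-binding protein 1), LXR and, for several of them, ChREBP, which carry insulin, sterol and carbohydrate signals.

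Fads1, Fads2 and Fads3 lie in 1 cluster on chromosome 19, and Scd1 and Scd2 lie close together elsewhere on that chromosome. In the GRCm38 build with GENCODE M21, Fads3 spans 10041569 to 10060110, Fads2 10062765 to 10101746 on the reverse strand, and Fads1 10182888 to 10196877. Scd2 spans 44293674 to 44306864 and Scd1 44394455 to 44407879 on the reverse strand. Elovl6 is on chromosome 3 (129532355 to 129638495), Elovl1 on chromosome 4 (118428093 to 118432953) and Elovl5 on chromosome 9 (77917364 to 77984519).

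Elovl6 and Elovl5 were the members with the lowest values in DW relative to SW mice, so the sequence just before each start is shown. Both are from the RefSeq promoter table (GRCm38.p6), forward strand, trimmed to end before the gene's first annotated base, at chr3:129532136-129532354 for Elovl6 and chr9:77917115-77917363 for Elovl5. Capitals mark matches to the motifs searched on both strands, 4 in number. The sterol response element was searched as TCACNCCAC. The box bound by NF-Y was searched as CCAAT. The E-box that ChREBP and SREBP1 can bind was searched as CACGTG. The GC box, the element of Sp1, was searched as GGGCGG.
Elovl6: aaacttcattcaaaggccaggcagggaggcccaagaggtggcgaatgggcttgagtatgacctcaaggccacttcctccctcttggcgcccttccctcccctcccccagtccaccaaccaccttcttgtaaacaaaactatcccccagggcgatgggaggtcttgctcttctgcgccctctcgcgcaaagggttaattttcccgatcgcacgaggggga
Elovl5: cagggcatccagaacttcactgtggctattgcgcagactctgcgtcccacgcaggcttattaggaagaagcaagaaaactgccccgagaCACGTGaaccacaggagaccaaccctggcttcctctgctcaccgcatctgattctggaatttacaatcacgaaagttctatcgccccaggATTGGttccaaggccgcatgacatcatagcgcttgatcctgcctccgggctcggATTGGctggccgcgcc
The 219 bases of Elovl6 held no match. The 249 bases of Elovl5 held 2 inverted CCAAT boxes, read as ATTGG on the forward strand, at 71 and 17 bases before the RefSeq start, and 1 CACGTG at 161 bases. Among 32851 promoter windows of 249 bases, 33.8% held a CCAAT match, 6.00% a CACGTG match and 1.04% the sterol response element, which was in neither window. These are matches of letters and say nothing of whether a factor binds. Of the other members, Fads2, Fads3 and Elovl1 were also in the table, and Scd1, Scd2 and Fads1 were not.

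Depth did not limit these genes. Recovered reads per animal ran from 57600711 to 302145813, and 14054 to 16066 genes were detected per library. The fewest reads of any of the 8 genes in any animal were 2797, for Elovl1 in SW male 84. Summed adipocyte markers (10 genes, Adipoq and Plin1 among them) lay between 20036 and 33140 in every animal, and other tissue in the pads varied: the 6 skeletal muscle markers summed to between 2.34 and 5565, and the 9 mammary epithelial markers to 1.45 to 48.1 in males and 46.6 to 399 in females. The sums of 3 endothelial and 7 Schwann cell markers were lowest in DW female 83 (779 and 432) and low in DW female 82 (873 and 499.6). These 2 libraries stood apart from DW females 76 and 77, with a chi-square per degree of freedom of 610 to 811.5 across the pairs against 126.5 and 129.4 within them, and results that rest on them are also given without them. In bulk tissue, fewer cells of a type and less RNA per cell cannot be told apart.

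Scd1 was by far the most abundant of the 8 genes. Per kilobase of exon, its mean level was 1880 ± 295 (SD, n = 4) in p21 males and 7307 ± 1390 in DW males, and its transcripts took between 0.474% and 4.74% of all recovered reads of a library. The next level in p21 animals was Scd2, at 102 ± 0.956 per kilobase in males and 95.5 ± 38.9 in females. In SW mice Elovl6 took the second place, at 132 ± 17.0 per kilobase in males and 143 ± 26.7 in females, and its values did not overlap those of Scd2 in males but did in females. Elovl6 was also second in DW males, at 73.0 ± 35.2 beside 70.1 ± 10.5 for Scd2, with overlap. Elovl5 was the fourth in all 6 groups. Elovl1 and Fads2 were the 2 lowest in every group, between 13.6 and 20.2 per kilobase, and their ranges overlapped except in SW females.

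**Figure D1:**
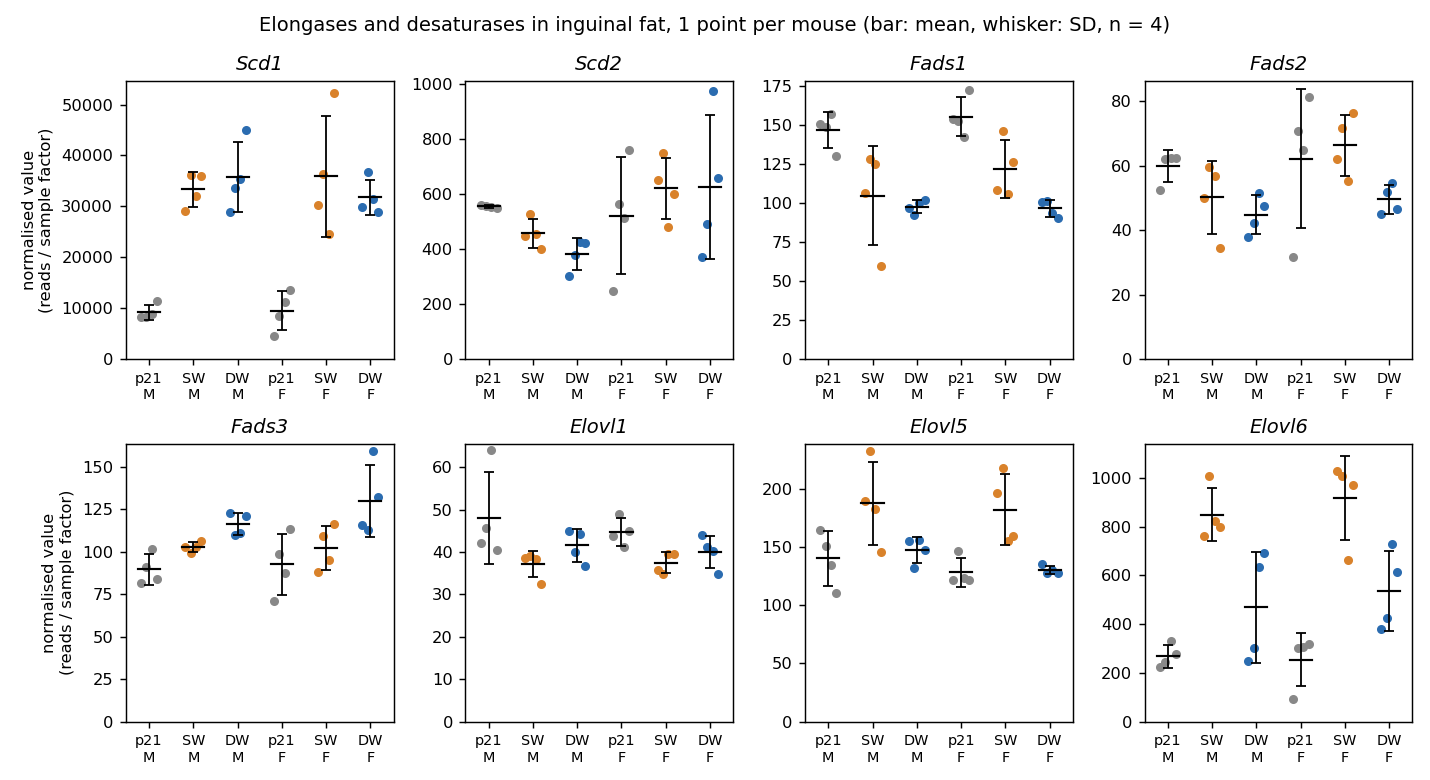
Normalised value (reads divided by a sample factor) of each gene in each of 24 mice, with group mean and SD (n = 4). Groups run p21, SW and DW in males (M) and then females (F). Scd1 is higher in all 16 p28 animals than in all 8 p21 animals, and Elovl6 has its highest group means in SW mice.

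Scd1, which makes the bulk of the monounsaturated fat in adipocytes, rose between p21 and p28 in both sexes and with either weaning schedule. In p21 males the values were 8337, 8233, 8906 and 11317, and in p21 females 4595, 8415, 11295 and 13464. In SW males they were 29072, 36189.7, 32082 and 35983, and in SW females 30299, 36352, 24565 and 52230.5. DW males had 28874, 33684, 35360.4 and 45073, and DW females 29924, 36783, 31400.0 and 28863. The p28 values lay above every p21 value in all 4 comparisons of p28 with p21, where 16.2% of all genes did not overlap in SW males, 21.5% in SW females, 23.1% in DW males and 15.1% in DW females. With limma, the log2 change against p21 was 1.86 (SE 0.41, adjusted p 0.00535) in SW males, 1.98 (SE 0.41, adjusted p 0.00234) in SW females, 1.95 (SE 0.41, adjusted p 0.00366) in DW males and 1.85 (SE 0.41, adjusted p 0.00516) in DW females. SW and DW share the p21 animals as their baseline. Fitted with only the compared groups, the DW female change had a limma adjusted p of 0.0908.

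Of all genes tested, 11.9% were called in SW males, 11.6% in SW females, 15.0% in DW males and 12.1% in DW females at an adjusted p under 0.05. Against these shares, 4, 3, 3 and 4 of the 8 members were called. The members were chosen with earlier results of these data known, so these counts are no test of the set. Tissue composition also moved with age. Of the 10 adipocyte markers, 3 rose and 1 fell in SW males (median log2 change 0.57) and 4 rose in DW males (median 0.53), beside 0.01 and 0.02 over all genes, and none was called in females. Their sums in males were 20036 to 23781 at p21, 26074 to 33140 in SW and 28847 to 32747 in DW mice, without overlap between p21 and p28. Macrophage markers rose (3 of 4 in SW and 4 of 4 in DW mice of each sex), 5 of 6 muscle markers rose in both male comparisons, and 7 of 9 mammary markers rose in SW females. In DW females 1 of 9 mammary markers rose. Of 7 Schwann cell markers, 2 fell in SW males, 5 in SW females, 1 in DW males and 3 in DW females, and 2 of 3 endothelial markers rose in DW males. Of 6 progenitor markers, 1 rose in SW males, SW females and DW males, and 2 in DW females. Of 7 lymph node markers, 2 fell in each male comparison and 1 in each female comparison. Of 5 beige adipocyte markers, 1 fell in SW females, 1 in DW males and 2 in DW females. With muscle and mammary scores as covariates, the Scd1 change was 1.93 in SW females (limma adjusted p 0.130), and between 1.76 and 2.20 in the other 3 comparisons, where it passed. The part of adipocytes, beige adipocytes, progenitors, macrophages, lymph node, Schwann cells and endothelium in the members' changes was not tested.

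Scd2, the second stearoyl-CoA desaturase, did not follow Scd1. Its values were 551 to 562 in p21 males, 400.0 to 528 in SW males and 303 to 428 in DW males, so that both p28 male groups lay below every p21 male. In females the ranges overlapped, with 247 to 762 at p21, 480.3 to 752 in SW and 372 to 976 in DW mice. None of the 4 age changes passed the test, at -0.28 (SE 0.27) and -0.55 (SE 0.27) in SW and DW males and 0.34 (SE 0.27) and 0.28 (SE 0.27) in SW and DW females. The female estimates rested on p21 female 30, without which they were 0.02 and -0.04, and without DW females 82 and 83 the DW value was -0.17. The ratio of Scd1 to Scd2 values was 16.6 ± 2.72 in p21 males and 18.3 ± 2.96 in p21 females, and 57.7 or more on average in each p28 group. Of the 50-base words of Scd1 transcripts, 4.56% occur in another gene's transcripts, and of those of Scd2, 3.97%. Of the 217 shared words of Scd2, 145 are shared with Scd1, whose values were far higher. How far this touches the Scd2 values was not tested. For Elovl6 the share was 3.98%, with 225 of 259 shared words found in Gm11295.

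Elovl6, the elongase that turns palmitate into stearate, had its highest levels in SW mice. Its values were 223, 246, 332 and 277 in p21 males and 93.0, 302, 304 and 319.5 in p21 females. In SW males they were 763, 1008, 824 and 799, and in SW females 1028, 1009, 662 and 972, all above every p21 animal. DW males had 248, 302, 634 and 692, and DW females 381, 424, 729.7 and 616. DW males 79 and 80 lay within the p21 range, and every DW female lay above all p21 females. DW and SW did not overlap in males but did in females, where SW female 75 lay among the DW animals.

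The rise from p21 in SW mice was 1.66 (SE 0.34, adjusted p 0.00345) in males and 1.98 (SE 0.34, adjusted p 0.000447) in females with limma. In DW females it was 1.18 (SE 0.34, adjusted p 0.0277), and the call was lost without p21 female 30 (0.75, limma adjusted p 0.110), DW female 82 (1.01, 0.0956) or DW female 83 (1.10, 0.0852), without both of these DW females (0.81, 0.251), with the marker covariates (0.0575) and in a fit of p21 and DW females alone (0.145). In DW males the difference from p21 was 0.68 (95% CI -0.04 to 1.39, limma adjusted p 0.190), which did not pass. With the marker covariates the rises in SW mice passed narrowly, at 1.69 in males (limma adjusted p 0.0491) and 1.95 in females (limma adjusted p 0.0486).

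Set directly against SW, Elovl6 in DW mice differed by -0.98 in males (SE 0.34, 95% CI -1.70 to -0.27) and by -0.80 in females (SE 0.34, 95% CI -1.51 to -0.09). Neither passed the adjustment over all genes, with limma adjusted p of 0.426 and 0.229 and unadjusted p of 0.00904 and 0.0297. Averaged over both sexes, a comparison added after seeing the data, the difference was -0.89 (SE 0.24, 95% CI -1.40 to -0.39, limma adjusted p 0.0549). Over the settings tried, that adjusted p ranged from 0.0146 to 0.203. The 2 sexes' differences were not distinguishable, since the female minus male difference was 0.19 (SE 0.49, limma adjusted p 0.929).

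**Figure D2:**
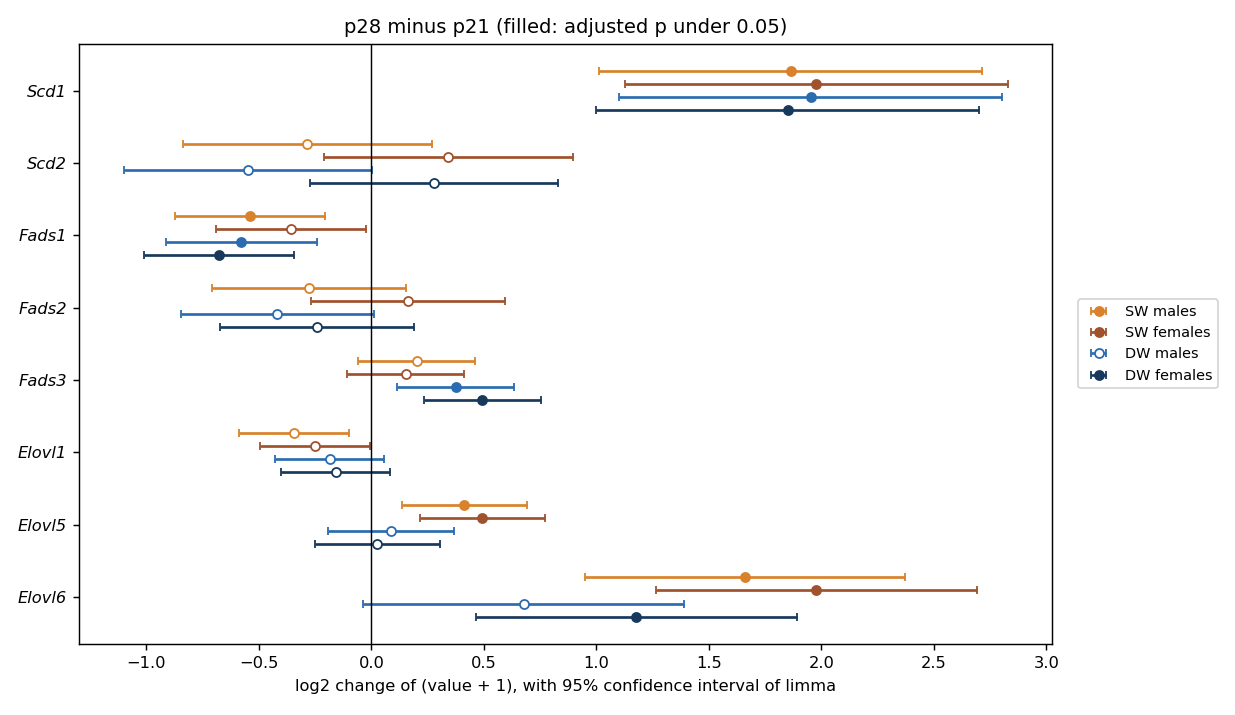
Log2 change from p21 to p28 of each gene with the 95% confidence interval of limma, by sex and weaning schedule, each group against the 4 p21 animals of its sex. Filled points have an adjusted p under 0.05. Scd1 intervals exclude 0 in all 4 comparisons, and Elovl6 and Elovl5 points lie further right in SW than in DW mice.

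Elovl5, the elongase of the polyunsaturated route, had the smallest spread in DW mice. Its values were 164, 151, 135 and 110.0 in p21 males and 121, 146, 124 and 121 in p21 females. SW males had 189, 232, 182 and 146, and SW females 196, 218, 155 and 159. In DW males it was 155, 132, 156 and 147, and in DW females 135, 127, 130.1 and 128. Every DW female lay below every SW female, whereas in males the ranges overlapped through SW male 124.

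Against p21, Elovl5 was higher in SW males by 0.41 (SE 0.13, limma adjusted p 0.0479) and in SW females by 0.49 (SE 0.13, limma adjusted p 0.0175), and by 0.09 and 0.03 in DW males and females, neither of which passed. The call in SW males was close to the threshold and was lost without p21 male 38, 53 or 54 or SW male 78, 84 or 85, with edgeR on the recovered reads (TMM scaling, adjusted p 0.0623) and with the marker covariates, with adjusted p between 0.0152 and 0.334 over all settings tried. In SW females it was lost without p21 female 30 or 56 or SW female 73 or 74, and with the marker covariates, with adjusted p between 0.00546 and 0.206. DW minus SW was -0.33 (SE 0.13, limma adjusted p 0.610) in males and -0.47 (SE 0.13, limma adjusted p 0.0926) in females, where it passed without DW female 76 (0.0379), and over both sexes -0.40 (SE 0.09, limma adjusted p 0.0265). Of the 8 genes it was the only one called in that added comparison, where 2.21% of all genes were called. It was not called without SW male 78 or 84, DW male 80, SW female 73 or 74, or DW female 83. The call was also lost without DW females 82 and 83 together (-0.39, limma adjusted p 0.0907). The same held without p21 male 53 and SW male 84 (-0.34, limma adjusted p 0.0576) and with the marker covariates (-0.40, limma adjusted p 0.114). Over the settings tried its adjusted p ranged from 0.00347 to 0.114.

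Elovl1, which feeds sphingolipid synthesis, lay between 40.5 and 63.96 in p21 males, 32.5 and 39.2 in SW males, and 36.8 and 45.0 in DW males. In females it lay between 41.1 and 48.9 at p21, 34.8 and 39.6 in SW and 34.7 and 43.9 in DW mice. SW animals of each sex lay below all p21 animals of that sex, but the changes of -0.34 (SE 0.12, limma adjusted p 0.0591) and -0.25 (SE 0.12, limma adjusted p 0.195) did not pass the test. In SW males it passed with edgeR (TMM scaling, adjusted p 0.0430) and DESeq2 (adjusted p 0.0309) on the recovered reads, and with limma without p21 male 37 (adjusted p 0.0459) or 54 (0.0342). Its exons share 53 bases with Cdc20 on the opposite strand, and the strand setting of the counts is not given in the sources used here.

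Fads1, the delta-5 desaturase, fell from p21 to p28 in 3 of the 4 age comparisons. It stood at 151, 149, 157 and 130.3 in p21 males and 154, 153, 142 and 173 in p21 females. SW males had 107, 128, 125 and 59.7, and SW females 109, 146, 106 and 126. DW males had 96.7, 92.6, 100.3 and 102, and DW females 101, 102, 93.7 and 90.6. With limma it fell by 0.54 (SE 0.16, adjusted p 0.0326) in SW males, by 0.58 (SE 0.16, adjusted p 0.0198) in DW males and by 0.68 (SE 0.16, adjusted p 0.00812) in DW females. In SW females the change was -0.36 (SE 0.16, limma adjusted p 0.174), and p21 and SW values overlapped through SW female 74.

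SW male 124, with the lowest Fads1 value of all 24 animals, was also low for Fads2, and without it the SW male change was -0.29 (limma adjusted p 0.0864). That call was also lost without p21 male 37 (0.0619), 38 (0.0618) or 53 (0.0782). With the marker covariates the limma adjusted p was 0.162 in SW and 0.110 in DW males, and in a fit of p21 and SW males alone it was 0.182. edgeR with DESeq2 size factors gave an adjusted p of 0.0529 in SW males. The DW male call was lost without p21 male 53 (0.0593), and the DW female call without DW females 82 and 83 together (0.0642). DW females lay below all SW females for Fads1, but the difference of -0.32 (SE 0.16, limma adjusted p 0.279) did not pass. In males DW minus SW was -0.04 (SE 0.16), with ranges that overlapped through male 124, and without that animal it was -0.29 (limma adjusted p 0.424). Over both sexes the difference was -0.18 (limma adjusted p 0.416), and without male 124 it was -0.30 (limma adjusted p 0.0259).

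Fads2, the delta-6 desaturase, was not called in any comparison, and without p21 female 30 its change in DW females was -0.53 (limma adjusted p 0.0366). In a fit of p21 and DW males alone its change was -0.42 (limma adjusted p 0.0383), and Scd2 was also called there (-0.55, limma adjusted p 0.0194). It lay between 52.6 and 62.5 in p21 males, 34.4 and 59.5 in SW males, and 37.9 and 51.6 in DW males. In females it was 31.5 to 81.3 at p21, 55.3 to 76.4 in SW and 45.1 to 54.8 in DW mice, so DW females lay below all SW females (-0.41, SE 0.21, limma adjusted p 0.285). Fads3, whose product introduces a double bond in sphingoid bases, went the other way. It was 81.8 to 102 in p21 males, 99.5 to 106 in SW males and 110.1 to 123 in DW males, with DW above SW without overlap. In females it was 70.9 to 113, 88.1 to 116 and 113 to 159 in the same order. With limma it rose against p21 in DW males (0.38, SE 0.13, adjusted p 0.0470) and DW females (0.49, SE 0.13, adjusted p 0.0128), and DW minus SW did not pass at 0.17 (SE 0.13, adjusted p 0.903) in males and 0.34 (SE 0.13, adjusted p 0.186) in females. The DW male call was lost without any 1 of the 8 animals except p21 male 53, and the DW female call without p21 female 30 (0.0561) or DW female 82 (0.0578), and without DW females 82 and 83 together, where the change was 0.32 (limma adjusted p 0.158). edgeR did not call Fads3 in DW males (adjusted p 0.0743 with TMM and 0.0614 with DESeq2 size factors). With the marker covariates the DW male call was lost (0.178), and in the fit of p21 and DW females alone the DW female call (0.145).

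**Figure D3:**
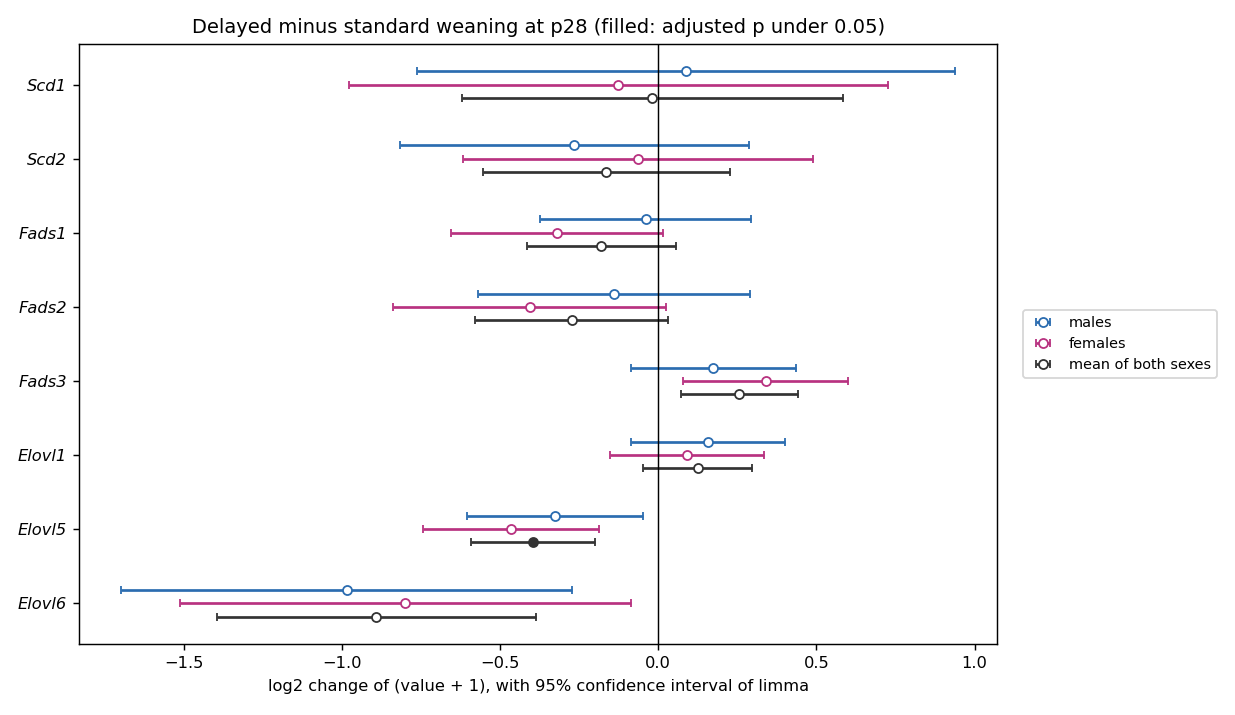
Log2 difference between DW and SW mice at p28 for each gene, with the 95% confidence interval of limma, in males, in females and as the mean of both sexes. Elovl5 is the only filled point (adjusted p under 0.05, mean of both sexes), and Elovl6 has the most negative estimates at -0.98, -0.80 and -0.89.

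In the comparison of DW with SW mice as planned, none of the 8 genes was called with limma in males, where 0.256% of all genes were, and none in females, where 1.27% were. edgeR and DESeq2 on the recovered reads also called none of the 8 in either sex. An unadjusted p under 0.05 was found for 2 of 8 members (Elovl5 and Elovl6) in males, beside 6.94% of all genes, and for 3 of 8 (Fads3, Elovl5 and Elovl6) in females, beside 18.9% of all genes. Ranges of DW and SW did not overlap for 2 of 8 members in males (Fads3 and Elovl6) and 3 of 8 in females (Fads1, Fads2 and Elovl5), against 8.73% and 5.79% of all genes. The weaning difference between the sexes was called for none of the 8 by limma (0.0187% of all genes), edgeR or DESeq2, and none had an unadjusted p under 0.05.

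Mammary markers summed to 289.7 to 399 in SW and 110.2 to 242 in DW females, without overlap. Muscle marker sums overlapped, at 279 to 2649.5 in SW and 2.66 to 1412 in DW females. No marker of either list was called between DW and SW. With both as covariates, the Elovl6 difference was -0.98 in males (limma adjusted p 0.499) and -0.79 in females (limma adjusted p 0.835). Over both sexes it was -0.89 (limma adjusted p 0.203). The 5 beige adipocyte markers had a median of -0.52 in males and -0.18 in females, beside 0.004 and -0.02 over all genes, and none was called. The part of other cell types in the Elovl6 difference was not tested.

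Animal numbers of the p28 mice fall into runs, 73 to 80 and 81 to 87, each of which holds SW and DW mice of both sexes, plus SW male 124. The labels do not say what a run stands for. Within both runs and in both sexes, Elovl6 was lower in DW than in SW animals: the log2 difference was -1.48 and -0.46 in males and -1.13 and -0.54 in females, for the lower and the higher numbers in turn. The 4 DW animals numbered 76 to 80 had 248 to 424, and the 4 numbered 82 to 87 had 616 to 729.7. Elovl5, Fads1 and Fads2 were also lower, and Fads3 higher, in DW animals in all 4 of these subsets. Each subset holds 3 to 5 animals, of which 2 are DW. SW is a single animal in the lower-numbered males (78) and in the higher-numbered females (81), and the differences there rest on it. Scd1, Scd2 and Elovl1 went in mixed directions. With the run as a covariate, added after seeing the data and leaving male 124 without weight, 3 members were called lower over both sexes: Fads1 (-0.31, limma adjusted p 0.0250), Elovl5 (-0.45, limma adjusted p 0.00996) and Elovl6 (-0.93, limma adjusted p 0.0261). The share of all genes called in that fit is not given here, so the count is not read as a result about the members.

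**Figure D4:**
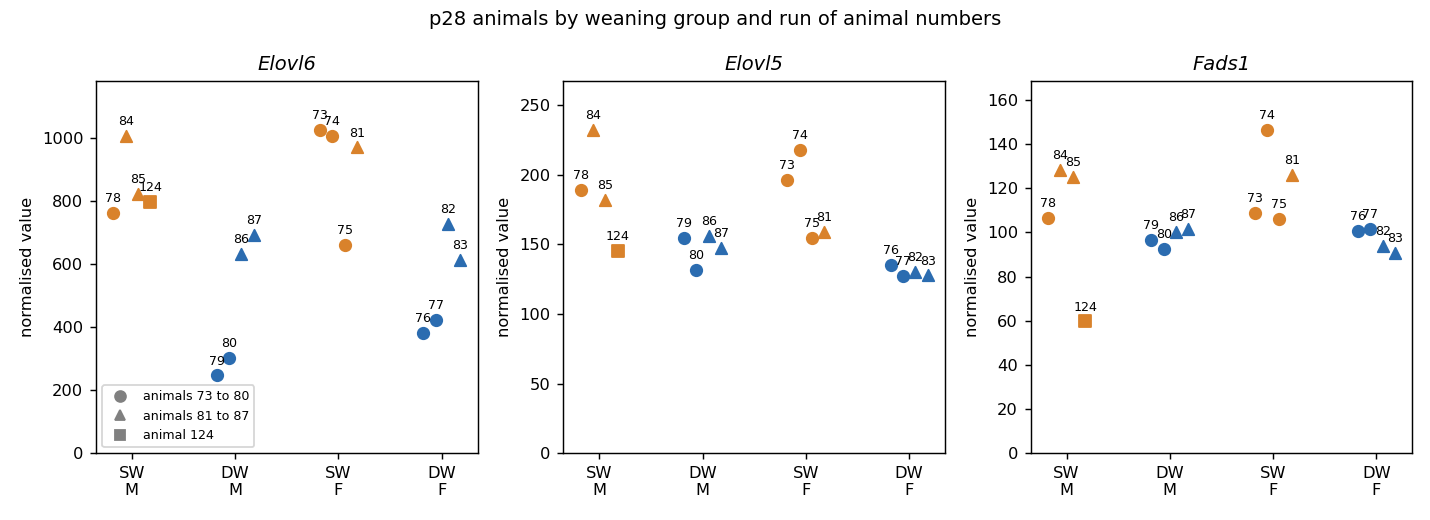
Normalised value of Elovl6, Elovl5 and Fads1 in each p28 mouse by weaning group, labelled with the animal number and marked by run of numbers. The 4 DW mice numbered 76 to 80 have Elovl6 values of 248 to 424, below the 616 to 729.7 of the other 4 DW mice.

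Scd1 and Elovl6 act on the same route. The ratio of Scd1 to Elovl6 values was 34.7 ± 6.03 in p21 males, 39.5 ± 3.90 in SW males and 87.2 ± 31.3 in DW males. In females it was 39.1 ± 9.04, 39.1 ± 10.3 and 63.8 ± 22.1. DW males (55.7 to 116.7) did not overlap SW males (35.9 to 45.0), whereas DW females (43.0 to 86.8) overlapped SW females (29.5 to 53.8). The DW animals numbered 76 to 80 held the high ratios, at 116.65 and 111 in males and 78.5 and 86.8 in females. Among the higher numbers, DW males 86 and 87 had 55.7 and 65.1 against 35.9 and 38.9 in SW males 84 and 85, whereas DW females 82 and 83 had 43.0 and 46.9, below SW female 81 at 53.8. These ratios are a description and were not tested.

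No member was called between the sexes at p21, in SW or in DW mice with limma, where 0.356%, 3.54% and 2.46% of all genes were, nor with edgeR or DESeq2. Only Scd2 in DW mice had an unadjusted p under 0.05 (0.0277, beside 19.7% of all genes), with females higher by 0.63 (SE 0.27, limma adjusted p 0.200). Its DW females held 372, 493, 976 and 659.9 against 303, 378, 428 and 423 in DW males. The difference depended on single animals: it was 0.85 without DW female 76 (limma adjusted p 0.0437), 0.38 without DW female 82 (limma adjusted p 0.674) and 0.18 without DW females 82 and 83 (limma adjusted p 0.906). Between males and females, the age changes were not called different for any of the 8 genes (unadjusted p under 0.05 for Scd2 alone, with delayed weaning, beside 17.0% of all genes), with 1.03% of all genes called for standard and 0.0687% for delayed weaning.

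Lists of further genes on the same routes show where the members stand. The 9 precursor synthesis genes supply cytosolic acetyl- and malonyl-CoA and palmitate. In SW males 4 of 9 rose from p21 (Acaca by 0.86, Acacb by 0.66, Fasn by 0.99 and the citrate carrier Slc25a1 by 1.41), and in SW females 3 of 9 (Acss2 by 0.96, Acaca by 0.85 and Slc25a1 by 1.22). In DW mice none of the 9 rose, and Acacb fell by 0.81 in DW females, which was -0.41 without DW females 82 and 83 (limma adjusted p 0.236). All 9 had lower estimates in DW than SW mice in both sexes, with a median of -0.55 in males and -0.45 in females beside 0.004 and -0.02 over all genes, but the test passed only Slc25a1 in females (-1.13, SE 0.20, limma adjusted p 0.00586), and without DW females 82 and 83 that was -0.78 (limma adjusted p 0.299). Slc25a1 values in DW mice (463 to 987 in females, 772 to 1044.5 in males) lay below every SW value (1272 or more).

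Among the 9 other elongases and desaturases, Elovl3, an elongase of saturated and monounsaturated very long chains, was lower in DW than SW mice of both sexes (-2.13 and -1.50 in males and females, limma adjusted p 0.00680 and 0.0368). The female call was lost without DW females 82 and 83 (-1.34, limma adjusted p 0.567) and without any 1 of 5 animals (SW females 73, 74 and 81, DW females 82 and 83). It had risen from p21 in SW males by 2.27 and in SW females by 1.58, at values that reached only 21.8. Scd3 rose with age in all 4 comparisons, by 1.59 and 1.07 in SW males and females and by 1.94 and 1.69 in DW males and females. Scd3 values reached only 10.1, far below Scd1, with which it shares 167 of the 50-base words, so its rise is uncertain. Degs1, the dihydroceramide desaturase, fell by 0.42 in SW males, 0.47 in SW females and 0.27 in DW males. Of the 6 partners that complete each elongation cycle, the dehydratase Hacd4 rose in all 4 age comparisons (0.69, 1.00, 0.91 and 1.10), and the reductase Tecr and the dehydratase Hacd2 rose in SW males (0.70 and 0.71). Over both sexes Tecr was lower in DW than SW mice (-0.70, SE 0.16, limma adjusted p 0.0164), and without DW females 82 and 83 by -0.43 (limma adjusted p 0.0659). Cyb5r3, which with cytochrome b5 passes electrons to the desaturases, was the 1 of 4 electron donors to rise, in SW males (0.80) and DW males (0.75).

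Of the 10 regulators, none was called in SW males with limma. In SW females Pparg and Ppara fell by 0.76 and 1.04, and in DW females Mlxipl, which encodes ChREBP, fell by 0.90 against p21. DW females 82 and 83 had Mlxipl values of 186 and 117, females 76 and 77 had 291 and 309.6, and p21 females 373 to 415, and without 82 and 83 the change was -0.39 (limma adjusted p 0.172). Insig1, which retains SREBP in the endoplasmic reticulum, rose by 0.62 in DW males. Over both sexes Mlxipl differed by -0.66 between DW and SW (SE 0.15, limma adjusted p 0.0213), and by -0.41 without DW females 82 and 83 (limma adjusted p 0.0796). Srebf1 and the other regulators were not called in the weaning comparisons. None of the 4 acyltransferases that place polyunsaturated chains in phospholipids was called in any age or weaning comparison. Of 5 long-chain acyl-CoA synthetases, Acsl1 rose in SW and DW males (0.56 in each), and Acsl3 and Acsl5 fell in DW males by 0.54 and 0.46. Of the 40 calls of list genes over the age and weaning comparisons, 20 held with each animal left out in turn and 20 were lost on leaving out at least 1. Slc25a1, Scd3 and Hacd4 in SW females, Pparg, and Elovl3 in males were among those that held, whereas Fasn, Acacb, Acaca, Tecr, Hacd2, Hacd4 and Cyb5r3 in SW males, Acss2, Acaca and Ppara in SW females, and Degs1, Cyb5r3, Insig1, Acsl1, Acsl3 and Acsl5 in DW males were among those lost.

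**Figure D5:**
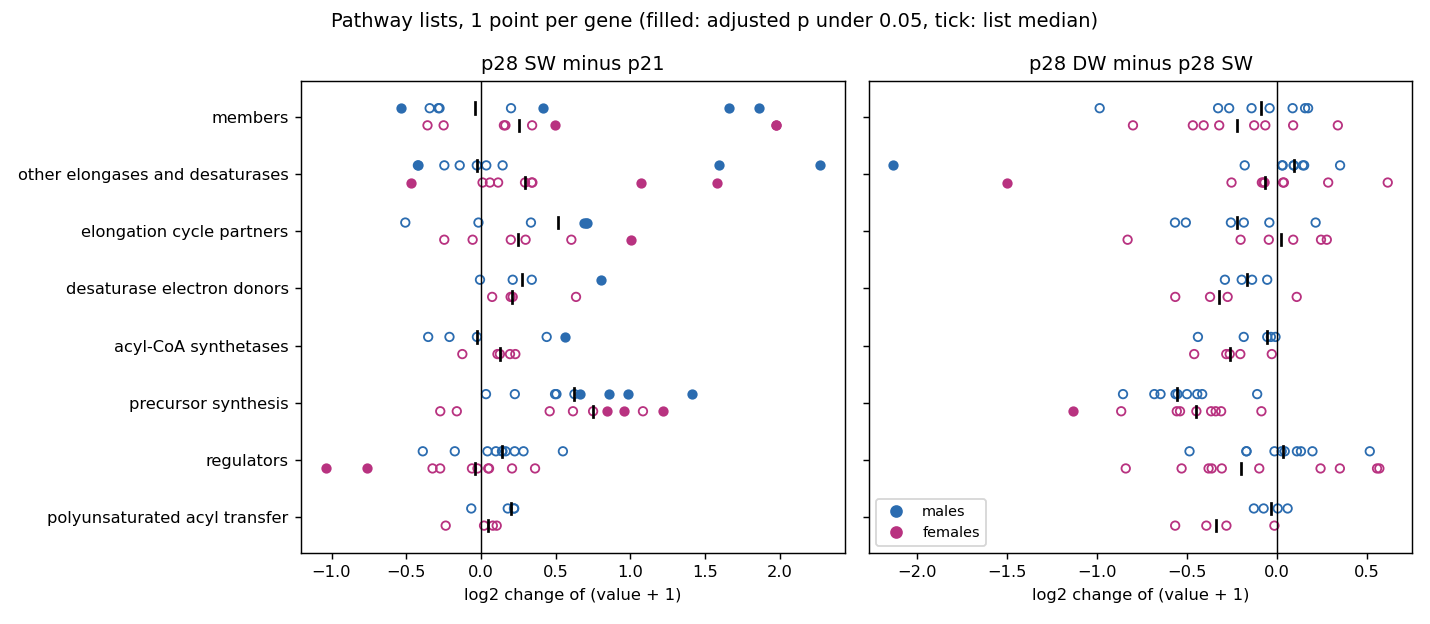
Log2 change of each gene of the 8 lists (1 point per gene, ticks at list medians) from p21 to SW on the left and from SW to DW on the right, for males and females. Filled points have an adjusted p under 0.05. Precursor synthesis genes lie mostly right of 0 on the left and all left of 0 on the right, with medians of -0.55 and -0.45.

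Likeness of pattern was measured as the root mean square difference of centred log2(value + 1) over the 24 animals, among 9933 genes with a mean of at least 3. Closest to Elovl6 (own root mean square 0.879) were Slc2a5, a fructose transporter, at 0.349, Mtarc1 at 0.369 and Adcy10 at 0.419. Dhcr7, the last enzyme of cholesterol synthesis, and Cyb5b, a cytochrome b5, were closest to Fads2 at 0.175 and 0.213. For Scd1 (own root mean square 0.959) they were Elk4 at 0.414 and the myeloid surface genes Cd33 at 0.485 and Siglec1 at 0.493. Macrophage markers rose with age beside Scd1. The closest to Elovl5 was Rgl1 (0.163), to Fads1 Paox (0.197), to Fads3 Ubqln2 (0.147), to Scd2 H1f0 (0.242) and to Elovl1 Dpagt1 (0.110). These distances also shrink for genes that vary little.

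The authors' deposited table gives their own log2 changes for the same comparisons. For Elovl6 the authors' deposited table lists -0.85 in males and -0.77 in females for DW against SW, with column values named adjusted p of 0.00781 and 0.0163. Among the values of the male column, 16104 of 16108 are distinct and 50.4% lie under 0.5. Benjamini-Hochberg adjustment of the column leaves Elovl6 at 0.306 in males and 0.198 in females, and leaves 114 of the 1223 male values under 0.05. Adjusted in the same way, the female column has 238 values under 0.05. DESeq2 on the recovered reads called 114 genes in males and 290 in females. The column names say adjusted, but the values are spread as unadjusted p-values are. The values of 0.00781 and 0.0163 for Elovl6 are therefore not read here as adjusted.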

How the data were processed

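Per the labels' protocols, libraries (KAPA mRNA HyperPrep) came from polyA RNA of inguinal fat of 24 mice, read on a NovaSeqXPlus. The submitters' processing notes name fastp, HISAT2, featureCounts, DESeq2 1.38.3 and the build mm10, without role or order. The deposited values are a normalised signal: reads divided by a sample factor. Whole reads were recovered for 100% of values (tolerance 0.01) and served only for filtering and alternatives. The authors also deposited log2 changes and columns named as adjusted p-values for 15 comparisons, of which 9 are used. The deposited gene positions equal GRCm38 starts for 2.23% of 16095 genes, so their build is not stated and none is printed. Of 16208 rows, 90 repeat a gene and were dropped.

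Main tests used limma 3.58.1 (trend) on log2(value + 1) in R 4.3.3, 1 fit over 24 animals and 16005 genes kept by edgeR's filterByExpr (minimum count 10), 18 residual degrees of freedom, Benjamini-Hochberg over all genes, called at an adjusted p under 0.05. All 6 groups entered the fit, so they share 1 estimate of spread. Log2 changes on this scale understate those of low genes. Alternatives were edgeR 4.0.16 (quasi-likelihood) and DESeq2 1.42.0 on the recovered reads, another pseudocount (0.1), other filters, no trend, only the compared groups, muscle and mammary marker scores as covariates, and leaving out animals. Leaving out DW females 82 and 83 together, the run of animal numbers, and leaving out animals for the genes of the lists were chosen after seeing the data. With TMM on the recovered reads, edgeR called 29 genes between DW and SW males, 71 between DW and SW females, and 1801, 1472, 2283 and 1666 for age in SW males, SW females, DW males and DW females. The fit was tested on simulated data. Replicate libraries differed beyond sampling noise (chi-square per degree of freedom at least 79.5 over 36 pairs). Deposited scaling was 0.972 to 1.04 times that of TMM. Levels per kilobase use GENCODE M21 exon unions. Titles of the p21 libraries read p28 and 1 title has another animal number than the other labels, and the age and ID labels were followed. All 8 members are named throughout, with up to 4 genes of each list per comparison (smallest p, called genes first), Elovl3, and the 3 genes most like each member. The members and lists were chosen with earlier results of these data known.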

Additional observations from a re-analysis of the deposited data

Results flagged for a closer look

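Of 48 sets of 4 animals (8 genes in 6 groups), 5 held an animal far from the other 3, where chance flags about 1 in 20. Fads2 was 52.6 in p21 male 37, below 62.2 to 62.5 in the others. Elovl1 was 32.5 in SW male 124, below 38.3 to 39.2. Elovl5 was 146 in p21 female 36, above 121 to 124. Elovl6 was 93.0 in p21 female 30, below 302 to 319.5, and 662 in SW female 75, below 972 to 1028. Male 124 also had the lowest Fads1 and Fads2 values of the SW males, and female 30 the lowest Scd1, Scd2, Fads2 and Fads3 values of the p21 females.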

How the results depend on the processing

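Of 1104 fits of single genes under other settings, 1071 kept their side of the threshold, 24 lost a call and 9 gained one. A change of direction counts as kept where neither fit was called. Among 1088 that left out 1 animal, 1047 kept their side, 33 lost a call and 8 gained one. No called change reversed. Calls in SW males against p21 went from 4 to 2 with edgeR and DESeq2 size factors. They also fell to 2 with only the compared groups and with marker covariates. With DESeq2 they rose to 5, while calls over all genes rose from 1901 to 2562. They ran from 2 to 4 with 1 animal left out. In SW females they went from 3 to 1 with the covariates (2 to 3). In DW males 3 became 5 with only the compared groups and 1 with the covariates (2 to 2 with 1 animal left out). In DW females 4 became 1 with only the compared groups and 1 without DW females 82 and 83 (2 to 4). Weaning in females stayed between 0 and 1, as did sex in DW mice. Over both sexes, 1 call became 2 with DESeq2, while calls over all genes rose from 353 to 586. The members' calls were also 2 under a filter on values (1 or more in 4 animals) and with only the compared groups. They were 3 with the run covariate. They were 0 with the marker covariates, without p21 male 53 and SW male 84, and without DW females 82 and 83 (0 to 2 with 1 animal left out). The causes of these moves were not tested. Except for DESeq2 and edgeR with TMM, shares of all genes called under other settings are not given here. Those counts are therefore not read as results about the members. Over all genes, weaning calls were 41 in males and 204 in females, against 114 and 290 with DESeq2 and 29 and 71 with edgeR. No paired analysis was possible because the groups share no animal numbers. Depth limits none of the 8 genes. The number of animals (4 per group) and tissue composition limit the comparisons.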
